A study of Mus musculus with 15 samples.

Results

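Potassium channel subunit genes were taken from single-nucleus RNA sequencing (snRNA-seq) of the dorsal hippocampal formation (dHF) of female mice, as all rows of the gene tables whose symbol is Kcn followed by letters and a number. The rule gave 92 of 32285 genes, which include the pore-forming subunits and the auxiliary proteins of potassium channels. The tissue came from 15 adult C57BL6/J mice, 1 library per mouse, each made from 4 micropunches of the dHF. The 6 NP mice were age-matched virgins, the 4 control RE mice had been through mating, pregnancy, birth and rearing of a litter, and the 5 stress RE mice had in addition been given little nesting material and been separated from their pups for part of each day in the later postpartum period. All were wild type, and the labels give no age in numbers and no oestrous stage. Of 3 batches in the labels, batch 1 held NP and stress RE mice but no control RE mouse.

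Potassium channels set the resting potential, the shape and rate of action potentials and the clearance of potassium from the extracellular space. Voltage-gated (Kv) subunits form tetramers within a subfamily and are joined by cytoplasmic beta subunits or by calcium-binding KChIP proteins. Inward rectifiers (Kir) include the G-protein-gated channels of neurons and the potassium-buffering channels of glia, two-pore (K2P) channels carry leak current, and the BK and SK channels open with intracellular calcium. In the hippocampus these families are known for setting how readily granule cells, pyramidal cells and interneurons fire.

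Levels are given in CPM, the unique molecular identifier (UMI) counts of a gene scaled to a total of 1000000 UMIs for a class of nuclei in 1 mouse, as mean ± SD over mice with at least 10 nuclei of that class. Libraries held 5789 to 12738 barcodes and 40602582 to 96211264 UMIs, no pair of libraries shared more than 47 barcodes, and 123901 nuclei were kept. Clusters were named from marker genes, which gave 27 classes with levels and 109971 nuclei, while 13930 nuclei stayed in unnamed clusters or in classes too small for a level. The members were left out of the genes used for clustering, but the classes were still made from the same nuclei, so that differences between classes are given as a description with no test. All but 15 members passed the filter on low counts in at least 1 of the 24 classes tested, and 13 passed it in every one of them. The 15 members that passed nowhere, among them Kcnk15, Kcnk16, Kcnj1 and Kcne1, could not be compared between groups. The classes also held neurons of regions beside the labelled one, 6936 thalamic, 1201 habenular and 1851 striatal projection nuclei, the last with at least 10 nuclei in 8 of the 15 mice, and with the ependymal cells the last 2 had too few mice per group for a test.

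The members differed in depth by orders of magnitude, and the longest genes held most of the UMIs. Kcnip4 (KChIP4, which slows the inactivation of Kv4 channels; chr5:48389502-49524907 of GRCm38, minus strand) spans 1135.41 kb and held 45.81% of the 21938789 UMIs of all members. With Kcnd2, Kcnma1 and Kcnq3 it made up 70.76%. Over the 82 members with at least 100 UMIs, Spearman's rho between the genomic span and the UMIs was 0.699, a description across genes, which are not independent and which share the same libraries. Per kb of genomic span the order was different: Kcna1, a gene of 5.99 kb, stood at 56.5 CPM per kb in oligodendrocytes, Kcnj13 at 41.0 CPM per kb in choroid plexus, and Kcnip4 at 22.8 CPM per kb in thalamic neurons. Below, a level is therefore compared between classes for the same gene only.

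The summed level of the members was highest in thalamic, CA1 and subiculum neurons, but not in every neuron class above the non-neuronal ones. Members took 4.35 ± 0.38% of the UMIs of thalamic neurons, 3.49 ± 0.28% in CA1 and 2.77 ± 0.15% in dentate granule neurons (SD, n = 15 mice each), and 3.32 ± 0.31% in subiculum (n = 13). This order rests on Kcnip4. Without that gene the mean share over mice was 2.12% in habenular neurons, 1.98% in Cajal-Retzius cells and in CA1, 1.88% in striatal projection and 1.77% in thalamic neurons, while subiculum at 1.47% was under CA2 at 1.56%. With Kcnip4, the share was 0.827 ± 0.18% in oligodendrocytes, 0.915 ± 0.16% in astrocytes and 1.44 ± 0.11% in oligodendrocyte precursor cells (OPC), above the 1.32 ± 0.12% of Sst interneurons and near the 1.42 ± 0.10% of non-telencephalic GABAergic neurons (n = 14). The non-neuronal nuclei also held counts of a neuronal gene. Slc17a7, the vesicular glutamate transporter of hippocampal excitatory neurons, was counted in oligodendrocytes at 21.5%, in astrocytes at 17.8%, in microglia at 25.8% and in pericytes or smooth muscle at 45.7% of its level in dentate granule neurons, and how much of the members' levels in these classes is free neuronal RNA was not tested.

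**Figure D1:**
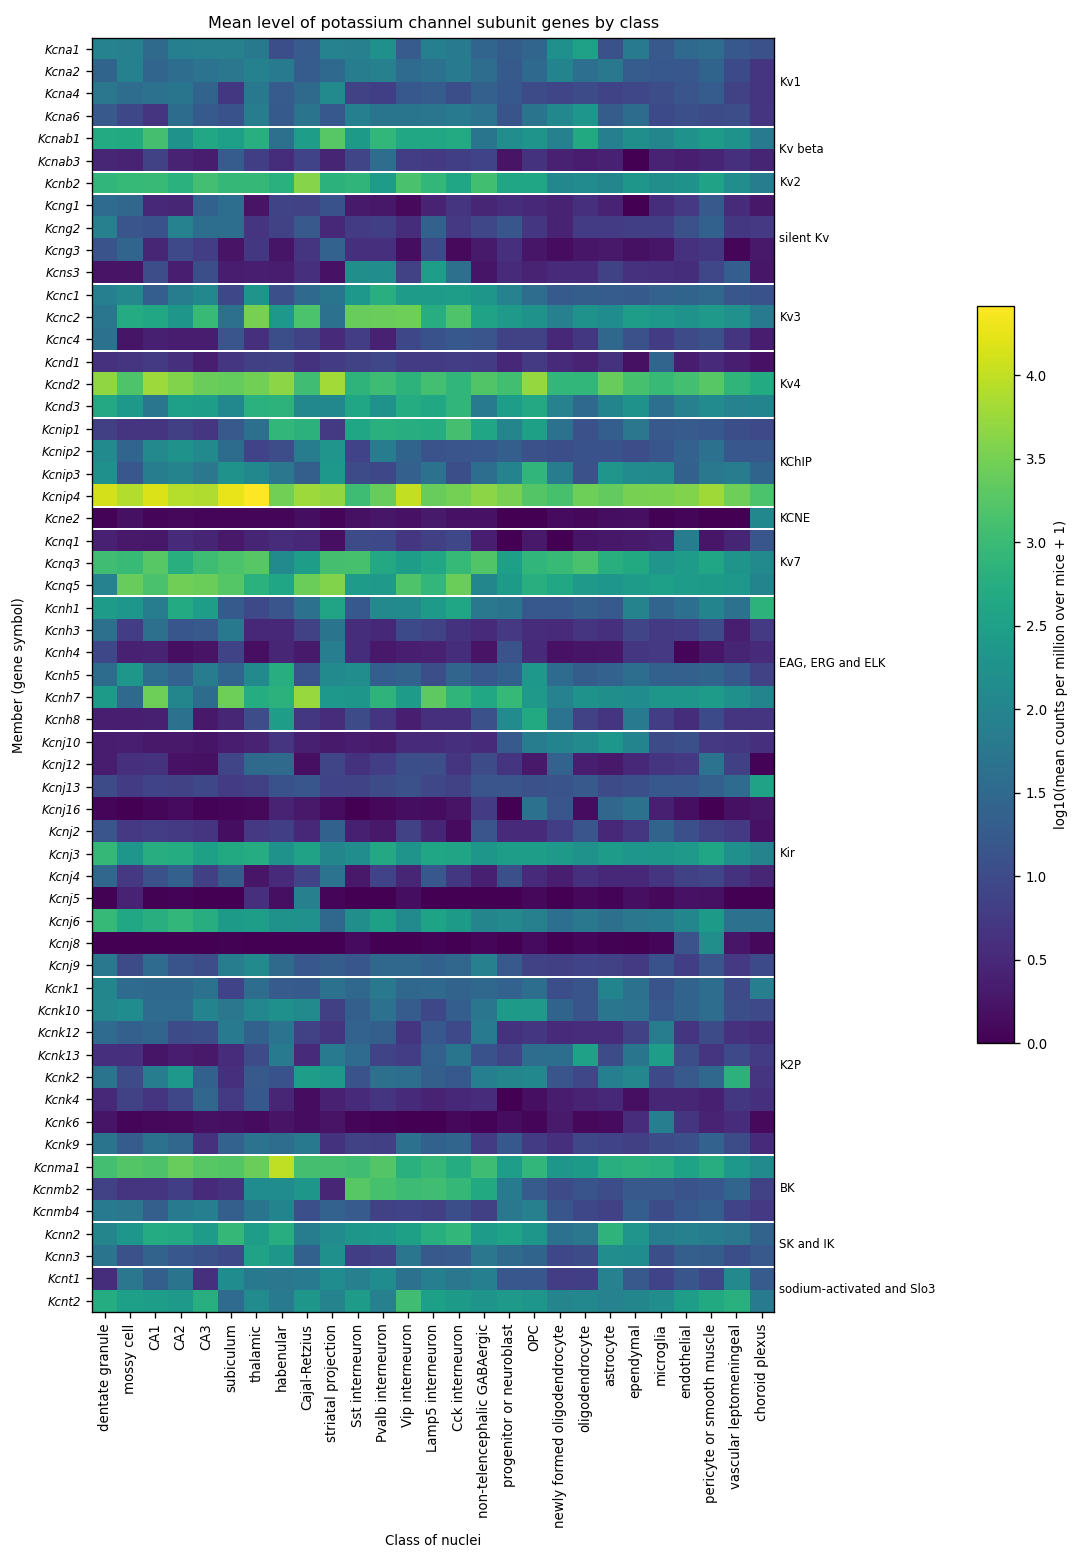
Mean level of 57 of the 68 members that reached 20 CPM in at least 1 class, those named in the text, as log10 of the mean CPM over mice plus 1 (colour), with members in rows grouped by family and the 27 classes in columns. Bright single cells of the map mark members high in 1 class, such as Kcne2 and Kcnj13 in choroid plexus, while Kcnip4, Kcnd2 and Kcnma1 are bright across the neuron classes.

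The upstream sequences of 5 members are shown because the results turn on the classes where these members were highest: Kcnj10 in astrocytes, Kcnh8 in OPC, Kcnj8 in pericytes or smooth muscle, Kcnj13 in choroid plexus and Kcnj5 in Cajal-Retzius cells. They are the 250 bases before the RefSeq transcription start in GRCm38.p6, written 5′ to 3′ on the strand of the gene. Capitals mark the letters GGGCGG (a GC box), ACAAAG (a SOX motif) and CAGCTG (an E-box) on either strand.
Kcnj10 (chr1:172340960-172341209, plus strand): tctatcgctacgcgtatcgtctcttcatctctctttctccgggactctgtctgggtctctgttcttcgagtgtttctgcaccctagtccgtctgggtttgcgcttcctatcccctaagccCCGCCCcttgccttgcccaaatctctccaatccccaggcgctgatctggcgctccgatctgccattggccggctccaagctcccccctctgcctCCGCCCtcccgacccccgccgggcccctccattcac
Kcnh8 (chr17:52602459-52602708, plus strand): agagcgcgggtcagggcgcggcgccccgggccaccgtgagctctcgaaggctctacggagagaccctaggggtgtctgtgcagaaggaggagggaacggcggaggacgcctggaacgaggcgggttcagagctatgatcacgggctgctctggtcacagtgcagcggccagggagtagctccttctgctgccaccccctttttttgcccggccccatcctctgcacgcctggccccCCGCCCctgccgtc
Kcnj8 (chr6:142571615-142571864, minus strand): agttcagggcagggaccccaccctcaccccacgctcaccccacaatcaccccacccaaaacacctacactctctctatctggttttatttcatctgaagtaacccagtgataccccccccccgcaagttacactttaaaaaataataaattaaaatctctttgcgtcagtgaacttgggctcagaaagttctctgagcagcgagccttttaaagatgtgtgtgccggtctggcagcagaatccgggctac
Kcnj13 (chr1:87394730-87394979, minus strand): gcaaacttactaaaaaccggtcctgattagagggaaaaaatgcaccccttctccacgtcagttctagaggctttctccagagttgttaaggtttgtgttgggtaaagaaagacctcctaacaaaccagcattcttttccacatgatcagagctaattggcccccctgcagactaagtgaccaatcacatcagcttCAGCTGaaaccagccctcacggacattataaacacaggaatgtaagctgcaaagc
Kcnj5 (chr9:32344345-32344594, minus strand): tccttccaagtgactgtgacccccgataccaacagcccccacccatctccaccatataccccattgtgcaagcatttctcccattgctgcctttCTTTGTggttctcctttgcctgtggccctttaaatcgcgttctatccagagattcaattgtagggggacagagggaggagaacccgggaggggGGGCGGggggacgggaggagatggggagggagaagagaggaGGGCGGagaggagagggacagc
Kcnj10 held 2 GC boxes and Kcnh8 held 1, Kcnj5 held 2 GC boxes and 1 SOX motif, Kcnj13 held 1 E-box, and Kcnj8 held none of the 3. Their GC content ran from 45.2% in Kcnj13 and 49.2% in Kcnj8 to 68.4% in Kcnh8. Of 32851 promoter windows in the table, 32.7% held the GC box, 16.5% the SOX motif and 13% the E-box in the same 250 bases, and of the 92 windows of the 67 members with an entry, 44.6%, 10.9% and 22.8% did. A match is a stretch of letters and not a bound site.

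Inward rectifiers of glia and of neurons had different orders of classes. Kcnj10 (Kir4.1, the potassium-buffering channel of glia; chr1:172341210-172374085) reached 208 ± 45.8 CPM in astrocytes (range 142 to 294 CPM, n = 15), was higher there than in oligodendrocytes (121 ± 14.1 CPM) in 15 of 15 mice, and stood at 98.5 ± 24.9 CPM in newly formed oligodendrocytes and 71.6 ± 12.5 CPM in OPC. In dentate granule, CA1 and CA3 neurons it was at most 1.3 CPM. Of astrocyte nuclei 42.0% held a Kcnj10 UMI (median depth 3398.5 UMIs) against 1.16% of dentate granule nuclei (8604 UMIs), and 16.9% against 0.153% after each nucleus was thinned to 1000 UMIs. Kcnj16 (Kir5.1, which forms channels with Kir4.1) did not follow Kcnj10 through the lineage. It stood at 44.9 ± 14.0 CPM in OPC and 27.5 ± 7.52 CPM in astrocytes, and the OPC level was 6.83 log2 units above that of oligodendrocytes, where Kcnj10 was 0.76 log2 units above OPC. Ependymal cells (n = 10) were near OPC in Kcnj16, at 43.1 CPM, and OPC was its highest class in 8 of 15 mice.

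Other rectifiers were high in vascular and choroid cells. Kcnj8 (Kir6.1, the pore of the vascular ATP-sensitive channel) was at 151 ± 57.9 CPM in pericytes or smooth muscle, at 12.2 ± 12.3 CPM in endothelial cells, and its 263 UMIs in all named classes gave 0.0159% of dentate granule nuclei with a UMI against 26.6% of pericyte or smooth muscle nuclei. Thinned to 1000 UMIs, the shares were 0.0032% and 14.8% (median depths 8604 and 1893 UMIs). Kcnj12 (Kir2.2) was also highest in pericytes or smooth muscle, at 47.0 ± 28.0 CPM, but there it was above habenular neurons in 6 of 12 mice only. Kcnj13 (Kir7.1, known from epithelia that transport potassium) reached 343 ± 110 CPM in choroid plexus (n = 13), above every other class in 13 of 13 mice, with a UMI in 72.9% of nuclei (26.5% thinned, median depth 5886.5 UMIs) against 8.79% (1.17% thinned) in dentate granule neurons. Kcne2, an auxiliary subunit of epithelial and cardiac channels, went with it at 112 ± 27.8 CPM in choroid plexus and at 1.05 CPM in the next class.

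Kcnj5 (Kir3.4, a G-protein-gated subunit best known from the heart) was counted in Cajal-Retzius cells at 83.5 ± 22.3 CPM and in thalamic neurons, the next class, at 3.05 ± 1.53 CPM, and was higher in Cajal-Retzius cells in 15 of 15 mice. Of these nuclei 21.9% held a UMI (median depth 2692 UMIs), and 8.65% after thinning, against 0.0446% and 0.0096% of dentate granule nuclei. The neuronal G-protein-gated subunits had another order. Kcnj3 (Kir3.1) was highest in dentate granule neurons at 862 ± 133 CPM and above CA1 (558 ± 93.2 CPM) in 15 of 15 mice. Kcnj6 (Kir3.2) stood at 892 ± 66.4 CPM in dentate granule neurons and at 829 ± 110 CPM in CA2, neighbours whose order held in 13 of 15 mice with overlapping ranges. Kcnj9 (Kir3.3) was highest in thalamic neurons, at 127 ± 15.1 CPM.

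Among the two-pore channels, Kcnk13 (THIK-1, known as the leak channel of microglia) was at 286 ± 38.4 CPM in microglia, but its highest class was oligodendrocytes at 330 ± 30.7 CPM, higher than microglia in 11 of 15 mice, and it stood at 36.9 ± 6.35 CPM in OPC and at or under 3.1 CPM in the 3 main principal neuron classes. Kcnk6 (TWIK-2) was read mainly in microglia, at 77.1 ± 12.1 CPM against 3.58 ± 5.33 CPM in endothelial cells, and 14.8% of microglia held a UMI (7.25% thinned, median depth 2062 UMIs) against 0.656% of dentate granule nuclei (0.0575% thinned). The microglia class of 5132 nuclei may also hold border macrophages, since at Leiden resolution 2 a separate cluster of 315 nuclei led by Mrc1, F13a1, Stab1 and Cd163 appeared and 4837 nuclei were named microglia, in which Kcnk6 was at 79.4 CPM and Kcnk13 at 288 CPM. Kcnk2 (TREK-1, a mechanosensitive leak channel) was highest in vascular leptomeningeal cells at 685 ± 103 CPM, above Cajal-Retzius cells (295 ± 56.5 CPM) in 15 of 15 mice. Kcnk1 (TWIK-1) stood at 105 ± 11.3 CPM in dentate granule neurons and 98.6 ± 12.0 CPM in astrocytes, which did not differ beyond their spread (9 of 15 mice). Kcnk4 (TRAAK) marked CA3 at 28.2 ± 4.15 CPM, above thalamic neurons in 15 of 15 mice, with the limit that Catsperz overlaps it on the same strand. Kcnk10 (TREK-2) was at 252 ± 58.6 CPM in the progenitor or neuroblast class (n = 10), a class that also held 551 CPM of Gad2, and at 229 ± 21.1 CPM in OPC.

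Members were also counted that stood above all 3 main principal neuron classes (dentate granule, CA1, CA3) in every mouse, among those at 20 CPM or more in a non-neuronal class. They numbered 11 of 34 in OPC (26% of all genes at that level met the same criterion), 8 of 30 in astrocytes (37.5% of genes), 5 of 25 in microglia (44.7%), 5 of 26 in newly formed oligodendrocytes (20%) and 4 of 21 in oligodendrocytes (42%). The counts were 3 of 22 in choroid plexus (34.4% of genes), 3 of 23 in vascular leptomeningeal cells (31.4%), 2 of 35 in pericytes or smooth muscle (9.8%) and 1 of 28 in endothelial cells (21.7%). Whether the members differ from other genes in these shares was not tested. The endothelial member was Kcnq1 (KvLQT1, a Kv7 subunit of epithelia and heart), at 71.5 ± 27.4 CPM. The 4 in oligodendrocytes were Kcnk13, Kcnj10, Kcna6 and Kcna1. Besides Kcnk6 and Kcnk13, the microglial members were Kcnk12 (THIK-2, 69.3 ± 11.0 CPM), Kcnd1 (Kv4.1, 26.1 ± 8.59 CPM) and Kcnj2 (Kir2.1, 24.6 ± 6.49 CPM), of which Kcnk12 was as high in subiculum (63.6 ± 15.2 CPM, lower in 8 of 13 mice).

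Kcna1 (Kv1.1, the axonal delayed rectifier of neurons; chr6:126640397-126646384) was at its highest level in oligodendrocytes, 338 ± 68.5 CPM, above Pvalb interneurons (164 ± 30.2 CPM) in 15 of 15 mice. Newly formed oligodendrocytes stood between, at 164 ± 41.8 CPM, and the log2 ratio of OPC to oligodendrocytes was -3.66. Kcna6 (Kv1.6) had the same order, with 207 ± 33.1 CPM in oligodendrocytes, 115 ± 32.4 CPM in newly formed oligodendrocytes and 48.7 ± 7.37 CPM in OPC, whereas Kcna2 (Kv1.2) stood at 96.4 ± 27.1 CPM in newly formed oligodendrocytes and 86.2 ± 16.6 CPM in mossy cells, a pair ordered this way in 6 of 12 mice. Kcnab1 (Kv beta 1, which gives Kv1 channels fast inactivation) was at 1301 ± 131 CPM in CA1, above Pvalb interneurons (821 ± 92.8 CPM) in 15 of 15 mice, with a higher level only in the striatal projection class (1860 ± 135 CPM, n = 8).

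**Figure D2:**
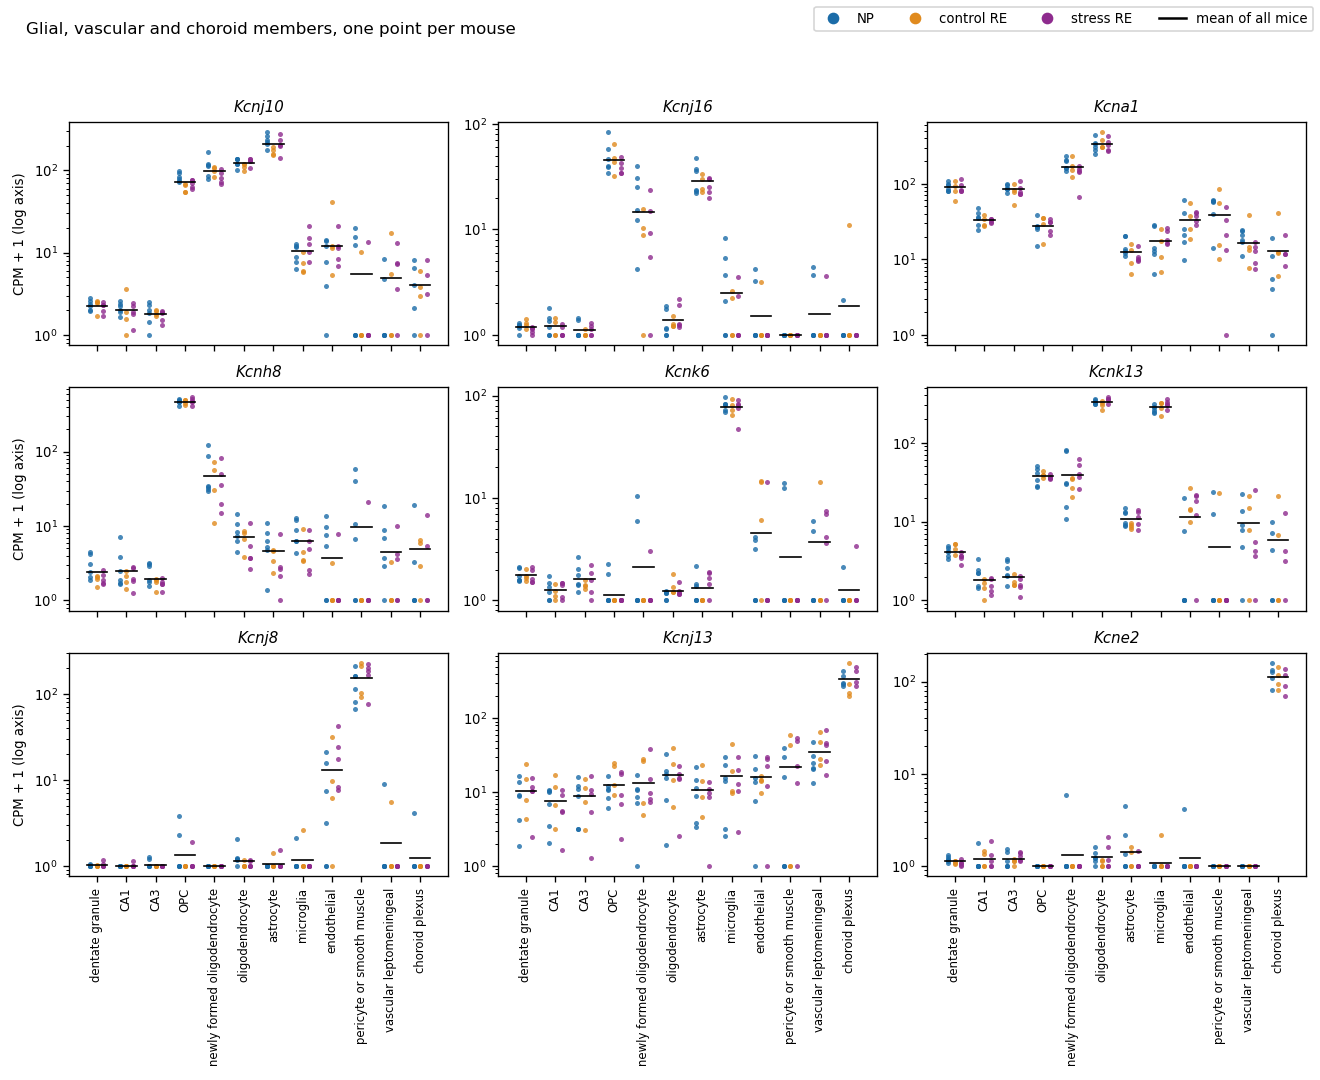
Level of 9 members in 12 classes, 1 point per mouse, coloured by group, with black lines at the mean of all mice and a log axis of CPM plus 1. In each panel the class or classes named in the text sit above the neuron classes in the NP, control RE and stress RE mice alike, such as microglia for Kcnk6 and pericytes or smooth muscle for Kcnj8.

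OPC and oligodendrocytes, which are stages of 1 lineage, differed in most members. Of 35 members at 20 CPM or more in either class, 23 (65.7%) were higher in OPC in every one of 15 mice and 8 (22.9%) were higher in oligodendrocytes, while over all 7677 genes at that level 26.1% and 28.6% did so. After Kcnj16, the largest ratios were those of Kcnh8 (a voltage-gated channel of the ELK type, log2 ratio 6.28), Kcnip3 (KChIP3, also known as DREAM, 6.08), Kcnip1 (KChIP1, 4.82) and Kcnk10 (4.15). Kcnh8 reached 469 ± 38.3 CPM in OPC, above habenular neurons (287 ± 126 CPM) in 12 of 12 mice, stood at 46.6 ± 31.6 CPM in newly formed oligodendrocytes, and gave a UMI in 77.6% of OPC nuclei (34.8% thinned, median depth 4437.5 UMIs) against 1.12% (0.1245% thinned) of dentate granule nuclei. Its level in newly formed oligodendrocytes depended on the removal of doublets and on the Leiden resolution, as given at the end. Kcnip3 was at 789 ± 172 CPM in OPC, the highest of the 27 classes in 15 of 15 mice, and Kcnd2 (Kv4.2, the A-type channel that KChIPs join) stood at 5115 ± 408 CPM in OPC, between its mean levels in dentate granule and CA1 neurons. On the oligodendrocyte side stood Kcna1 (-3.66), Kcnk13 (-3.16), Kcna6 (-2.09) and Kcnab1 (-1.31).

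Granule and pyramidal neurons held members of the same families at different levels. Of 40 members at 20 CPM or more, 20 (50%) were higher in dentate granule neurons than in CA1 in 15 of 15 mice and 14 (35%) were higher in CA1, against 34.7% and 22.3% of 6704 genes. Kcnc4 (Kv3.4, a fast-inactivating Kv3 subunit) had the largest ratio on the granule side, 4.93 log2 units, at 45.3 ± 10.9 CPM in granule neurons, and Kcng1 (3.98) and Kcng2 (2.80), electrically silent subunits that modify Kv2 channels, were also higher there. Kcnd3 (Kv4.3) was 3.16 log2 units higher in granule neurons, where it stood at 468 ± 54.9 CPM. Kcnd2, its Kv4 partner, was 0.33 log2 units higher in CA1, at 5949 ± 733 against 4748 ± 456 CPM. On the CA1 side stood Kcnq5 (Kv7.5, log2 ratio -3.92), Kcnh7 (ERG3, -3.42), Kcnc2 (Kv3.2, -3.06), Kcnt1 (a sodium-activated channel, -2.87) and Kcnn2 (SK2, -2.32). Kcnh3 (an ELK type channel) was at 41.2 ± 14.4 CPM in CA1, with a log2 ratio of granule neurons to CA1 of 0.02 and was higher in granule neurons in 7 of 15 mice.

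CA1 and CA3 split the members evenly: of 39 at 20 CPM or more, 18 (46.2%) were higher in CA1 and 18 (46.2%) in CA3 in every mouse, against 24.3% and 20.6% of 6420 genes. Kcnh7 had the largest difference, 6.28 log2 units, with 2740 ± 392 CPM in CA1 and, in Cajal-Retzius cells, 5452 ± 698 CPM, the highest of the 27 classes in 15 of 15 mice. Kcnk9 (TASK-3) was 3.82 and Kcnt1 2.80 log2 units higher in CA1. CA3 was higher in Kcng1 (-3.42), Kcnk4 (-2.995), Kcnd3 (-2.53) and Kcnc1 (Kv3.1, -2.50). Kv7 genes, whose subunits make the M current, were not ordered alike. Kcnq3 stood at 1815 ± 160 CPM in CA1, near its 1861 ± 214 CPM in thalamic neurons (9 of 15 mice), and Kcnq5 at 2860 ± 544 CPM in CA2 and 2626 ± 384 CPM in CA3 (11 of 15 mice).

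The members highest or second in CA2, subiculum and mossy cells mostly stood near their level in another class. Kcng2 was at 91.2 ± 29.6 CPM in CA2 and 81.8 ± 12.5 CPM in granule neurons, ordered so in 8 of 15 mice. Kcnip2 (KChIP2) reached 180 ± 33.6 CPM in CA2, second to the striatal projection class. In subiculum (n = 13), Kcnn2 stood at 862 ± 128 CPM, Kcng1 at 38.6 ± 9.58 CPM and Kcnh3 at 60.6 ± 32.4 CPM. Kcng1 was at 33.3 CPM in dentate granule neurons, and subiculum was its highest class in 9 of 13 mice. Kcnh3 was at 49.5 CPM in the striatal projection class, and subiculum was its highest class in 10 of 13 mice. Kcnn2 was at 850 ± 101 CPM in Cck interneurons and 747 ± 127 CPM in astrocytes, so that subiculum led Cck interneurons in 6 of 13 mice only. In mossy cells (n = 12), Kcng3 was at 26.4 ± 5.51 CPM against 23.0 CPM in the striatal projection class, and mossy cells were its highest class in 8 of 12 mice. In dentate granule neurons, Kcnmb4 (BK beta 4, which slows BK channels) stood at 61.1 ± 4.61 CPM and in CA3 at 80.5 ± 8.76 CPM, while habenular neurons (95.7 ± 33.0 CPM) and OPC (82.5 ± 12.5 CPM) were above both by mean.

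**Figure D3:**
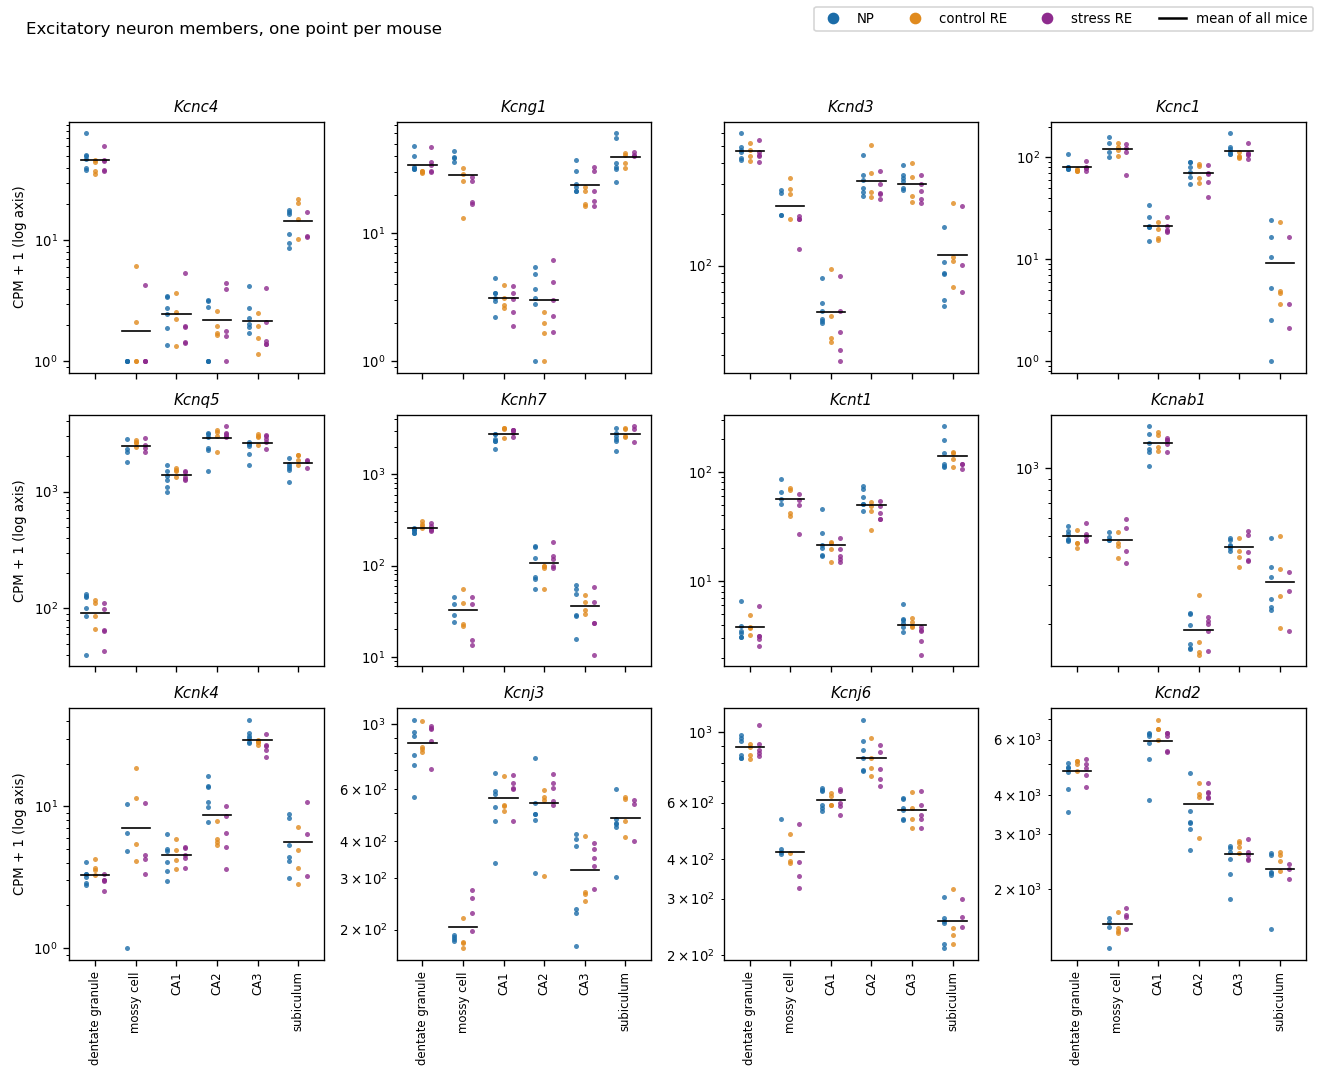
Level of 12 members in 6 classes of hippocampal excitatory neurons, 1 point per mouse, coloured by group, with black lines at the mean of all mice and log axes of CPM plus 1 whose ranges differ between panels. Kcnq5, Kcnh7 and Kcnt1 are lower in dentate granule neurons than in CA1, and Kcnc4 and Kcnd3 have the opposite order. Kcnd3 in mossy cells is at 124 to 193 CPM in stress RE and 196 to 278 CPM in NP mice, without overlap. Overlap of the groups in the other classes and panels was not counted.

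Neurons that lie outside the hippocampus, thalamic and habenular, and Cajal-Retzius cells held the extremes of several members. Thalamic neurons had 25881 ± 3345 CPM of Kcnip4, above subiculum (18488 ± 2608 CPM) in 13 of 13 mice, the highest Kcnc2 at 3170 ± 299 CPM and the highest Kcnn3 (SK3) at 354 ± 45.6 CPM. Kcnma1 (the BK channel pore) stood at 9658 ± 4554 CPM in habenular neurons (n = 12), with a range of 3674 to 16016 CPM, against 2681 ± 203 CPM in thalamic neurons, and was higher in habenular neurons in 12 of 12 mice. Kcnb2 (Kv2.2), at 4059 ± 460 CPM, was highest in Cajal-Retzius cells in 15 of 15 mice. The striatal projection class, found in 8 mice, held the highest levels of Kcna4 (Kv1.4, an inactivating Kv1 subunit, 125 ± 26.4 CPM), Kcnh4 (also of the ELK type, 75.1 ± 11.5 CPM) and Kcnj4 (Kir2.3, 46.4 ± 10.7 CPM), each above the next class in 8 of 8 mice.

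Interneurons shared an accessory subunit that was low in the hippocampal principal neurons. Kcnmb2 (BK beta 2, which inactivates BK channels) was at 1811 ± 219 CPM in Sst, 1371 ± 176 CPM in Pvalb, 1151 ± 207 CPM in Lamp5, 1053 ± 131 CPM in Vip and 881 ± 239 CPM in Cck interneurons, with the Sst level above the Pvalb level in 15 of 15 mice and 2.34 to 6.11 CPM in the 6 classes of hippocampal excitatory neurons. The Pvalb level was above Lamp5 in 14 of 15, and Lamp5 and Vip did not differ beyond their spread (9 of 15). A Kcnmb2 UMI was found in 99.0% of Sst nuclei (72.3% thinned, median depth 15771.5 UMIs) against 4.36% (0.613% thinned) of dentate granule nuclei, and Kcnmb2 was at 482 ± 156 CPM in non-telencephalic GABAergic neurons (n = 14). Kcnc1 (Kv3.1, which allows fast firing) was highest in Pvalb interneurons at 614 ± 98.6 CPM, above Cck interneurons (294 ± 46.9 CPM) in 15 of 15 mice. Kcns3 (Kv9.3, a silent subunit) led in Lamp5 interneurons at 296 ± 59.5 CPM. Kcnip1 was at 1279 ± 206 CPM in Cck interneurons, above habenular neurons in 7 of 12 mice, 698 ± 146 CPM in Cajal-Retzius cells and 564 ± 130 CPM in Vip interneurons. Kcnt2 (a sodium-activated channel) led in Vip interneurons at 1124 ± 217 CPM, above vascular leptomeningeal cells in 15 of 15 mice.

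Sst and Pvalb interneurons, both of the Lhx6 lineage, still differed. Of 37 members at 20 CPM or more, 16 (43.2%) were higher in Pvalb and 7 (18.9%) in Sst interneurons in every mouse, against 6.74% and 5.79% of 6835 genes. In this and the earlier comparisons of class pairs, the shares over all genes were not matched for depth. Whether the members differ from other genes in these shares was also not tested. The Pvalb side held Kcnip2 (-3.35), Kcnh1 (EAG1, -2.95), Kcnab3 (-2.33), Kcnh7 (-1.81) and Kcnc1 (-1.48, log2 ratio of Sst to Pvalb), and the Sst side held Kcnh5 (EAG2, 2.85), Kcnt2 (1.64), Kcnq3 (1.56) and Kcnb2 (1.52). Kcnc2 was at 2433 ± 257 and 2551 ± 363 CPM and higher in Sst in 7 of 15 mice. Over the 68 members that reached 20 CPM in at least 1 class, 54 had the same highest class in the NP, the control RE and the stress RE mice. The same share over all genes was not counted, so that this number is a description of the members only.

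The second question of the design was whether reproductive experience, with or without postpartum stress, left a difference in these genes. No member passed an adjusted p of 0.05 in any class in any of the 3 contrasts (edgeR quasi-likelihood test on counts summed per mouse and class, Benjamini-Hochberg adjustment over all genes of the class, 908 member and class pairs per contrast). For control RE against NP, 0 members were called, as were 0% of the 198398 gene and class pairs. For stress RE against control RE the counts were 0 members and 0.00202% of the pairs, and for stress RE against NP 0 members and 0% of the pairs. With DESeq2 they were 0, 0 and 0 members. In edgeR without the filter on low counts, 1, 1 and 4 of 1940 member pairs were called, beside 0.0328%, 0.0334% and 0.0528% of 515470 pairs over all genes.

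At an unadjusted p under 0.05, 45 pairs passed for control RE against NP (21 higher and 24 lower in control RE), which is 4.96% of member pairs against 3.36% of all pairs. For stress RE against control RE, 35 passed (12 higher, 23 lower), 3.85% against 2.51%. For stress RE against NP, 66 passed (23 higher, 43 lower), 7.27% against 4.17%. DESeq2 gave 49, 31 and 67. The median log2 fold change over the member pairs was -0.02, -0.03 and -0.07, and the median standard error of a pair was 0.23, 0.24 and 0.22 log2 units.

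The family counts held no call either. Kv3 genes had 1 pair higher and 6 lower at an unadjusted p under 0.05 of 68 pairs in control RE against NP, 1 higher and 3 lower in stress RE against control RE, and 0 higher and 7 lower in stress RE against NP, with medians of -0.18, 0.04 and -0.15. In the same order of contrasts, Kv7 genes had 2 and 2, 0 and 4, and 4 and 6 higher and lower of 79 pairs, EAG, ERG and ELK genes 4 and 1, 2 and 2, and 5 and 3 of 83, and Kir genes 2 and 4, 4 and 1, and 2 and 2 of 107. In the other 11 families no contrast had more than 4 higher or 5 lower. Genes that work with the members did not pass either with the filter on low counts. Without it, Dpp10, which joins Kv4 channels, was called in subiculum (adjusted p = 2.454e-08) and non-telencephalic GABAergic neurons (5.671e-07) for control RE against NP and in the latter (0.00886) for stress RE against NP, as were Cacna1e in Pvalb interneurons (0.000149) and Abcc9 in endothelial cells (0.0354) for stress RE against NP (edgeR). The fit without the filter can give a far lower p at a like difference, as described at the end. These calls are therefore not read as differences between groups. Of the 13 potassium channel partners (among them Dpp6, Dpp10 and Cntnap2) 10 could be tested in 162 pairs, with 0 called, 5 higher and 2 lower at an unadjusted p under 0.05 for control RE against NP, 1 higher and 3 lower for stress RE against control RE, and 4 higher and 9 lower for stress RE against NP. For the 4 HCN channels the counts higher and lower were 1 and 3, 0 and 0, and 4 and 1 of 44 pairs, for the 9 voltage-gated sodium channel genes 1 and 9, 6 and 3, and 0 and 1 of 165, and for the 8 voltage-gated calcium channel genes 2 and 3, 1 and 5, and 1 and 11 of 156, with 0 called throughout.

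The named pairs below were picked for low p, so that a lack of overlap among them follows in part from that choice. The share of pairs without overlap over all members or all genes was not counted. The 5 pairs with the lowest unadjusted p in control RE against NP were led by Kcnj3 in Sst interneurons. Its levels in control RE were 235, 191, 165 and 160 CPM, and in NP the lowest, median and highest were 60.4, 111 and 150 CPM, so that the groups did not overlap. The log2 fold change was 0.82 ± 0.21 (SE) with an adjusted p of 0.935 (edgeR), and the within-batch differences were 0.84 in batch 2 and 0.69 in batch 3. Without the filter on low counts the adjusted p was 0.00727 (edgeR), in a fit whose p-values are described at the end. Stress RE mice lay over both groups, at 111 to 203 CPM. Kcnip2 in microglia was at 15.0 to 24.3 CPM in control RE and 6.19 to 13.2 CPM in NP (log2 fold change 1.04 ± 0.29, adjusted p rounding to 1 with edgeR), from 4 to 20 UMIs per mouse. Over all mice it stood at 14.3 ± 5.83 CPM in microglia against 130 ± 20.4 CPM in dentate granule neurons, and how much of it is free RNA was not tested. With doublets kept, its log2 fold change was 0.24. Kcnt2 in Pvalb interneurons stood at 91.6 to 131 CPM in control RE and at 43.9 to 107 CPM in NP (0.73 ± 0.21, adjusted p = 0.977 with edgeR). The NP values came from 12 to 41 UMIs per mouse. Over all mice Kcnt2 was at 83.0 ± 25.8 CPM in Pvalb interneurons against 548 ± 83.1 CPM in dentate granule neurons. Kcnj3 was at 143 ± 46.3 CPM in Sst interneurons against 862 ± 133 CPM in dentate granule neurons. How much of these interneuron levels is free RNA was not tested. Kcnc2 in non-telencephalic GABAergic neurons stood at 332 to 493 against 260 to 363 CPM (0.49 ± 0.15, adjusted p rounding to 1 with edgeR), and the log2 fold change was 0.17 at Leiden resolution 2, where a cluster of 1716 nuclei led by Pax3 joined the 444 of this class. Kcnj10 in OPC had the opposite sign, at 53.3 to 68.0 CPM in control RE and 71.8 to 96.3 CPM in NP (-0.42 ± 0.13, adjusted p rounding to 1 with edgeR), and the batch differences were -0.24 and -0.42.

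In stress RE against control RE, the lowest unadjusted p belonged to Kcnn2 in astrocytes. Stress RE mice stood at 687, 610, 619, 669 and 633 CPM and control RE mice at 829, 1008, 773 and 940 CPM, with no overlap, and NP mice ran from 575 to 855 CPM and covered the stress RE range. The log2 fold change was -0.49 ± 0.12 (SE) with an adjusted p rounding to 1 (edgeR), and -0.58 and -0.38 within batches 2 and 3. The astrocyte class pooled clusters of 5933 and 3505 nuclei, and their mix per mouse was not compared. Kcnd2 in Cajal-Retzius cells had the lowest adjusted p of any member, 0.241 (edgeR, 0.0327 without the filter on low counts). It was at 1238, 1030, 699, 525 and 1053 CPM in stress RE and 1724, 1104, 1388 and 1612 CPM in control RE, which overlapped, with a log2 fold change of -0.67 ± 0.19. Kcnd3, the other Kv4 gene among the pairs, was lower in mossy cells (124 to 193 against 187 to 326 CPM, -0.56 ± 0.18, adjusted p rounding to 1 with edgeR) and in vascular leptomeningeal cells (35.9 to 105 against 64.7 to 144 CPM, -0.89 ± 0.28, adjusted p = 0.979 with edgeR) but did not pass. In mossy cells the differences within batches 2 and 3 were -0.21 and -0.98, so that their size differed between batches. NP mossy cells stood at 196 to 278 CPM of Kcnd3, above the stress RE range and within that of control RE. Kcns3 in Cck interneurons was at 44.9 to 71.96 CPM in stress RE and 26.8 to 32.3 CPM in control RE (0.85 ± 0.27, adjusted p rounding to 1 with edgeR), without overlap between these 2 groups, while NP mice ran from 18.4 to 53.5 CPM.

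In stress RE against NP, Kcnh5 in mossy cells came first. Stress RE mice were at 250, 257, 289 and 302 CPM and NP mice at 140, 170, 149 and 222 CPM, so that the groups did not overlap, with 4 mice each that had at least 10 mossy cells. The log2 fold change was 0.73 ± 0.18 (SE), the adjusted p 0.488 (edgeR, 0.035 without the filter on low counts), and the differences within batches 2 and 3 were 0.91 and 0.21. Kcnn3 in Cck interneurons was at 2.62 to 14.6 CPM in stress RE and 11.3 to 47.9 CPM in NP (-1.63 ± 0.42, adjusted p = 0.872 with edgeR), from 1 to 22 UMIs per mouse. Within batches 1, 2 and 3 the difference was -0.62, -0.59 and -2.23, so that its size differed between batches. The remaining 3 were all in glia: Kcnt1 in astrocytes at 50.5 to 84.7 against 60.6 to 141 CPM (-0.62 ± 0.18, adjusted p rounding to 1 with edgeR), Kcnip1 in microglia at 6.72 to 13.3 against 11.9 to 38.6 CPM (-1.19 ± 0.36, adjusted p = 0.885 with edgeR) and Kcnc2 in newly formed oligodendrocytes at 34.8 to 84.0 against 66.6 to 152 CPM (-0.89 ± 0.27, adjusted p = 0.767 with edgeR). Each of these 3 overlapped between groups. With doublets kept, the log2 fold change was -0.29 for Kcnip1 in microglia and -0.96 for Kcnn3 in Cck interneurons. Kcnip1 in microglia (16.1 ± 9.32 CPM over all mice) was above dentate granule neurons (5.78 ± 2.90 CPM) but far under Cck interneurons (1279 CPM), and Kcnc2 in newly formed oligodendrocytes (81.2 ± 34.9 CPM) was under CA1 (435 ± 42.8 CPM), and how much of these 2 levels is free RNA was not tested. Each group enters 2 of the contrasts, so that the contrasts share mice.

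**Figure D4:**
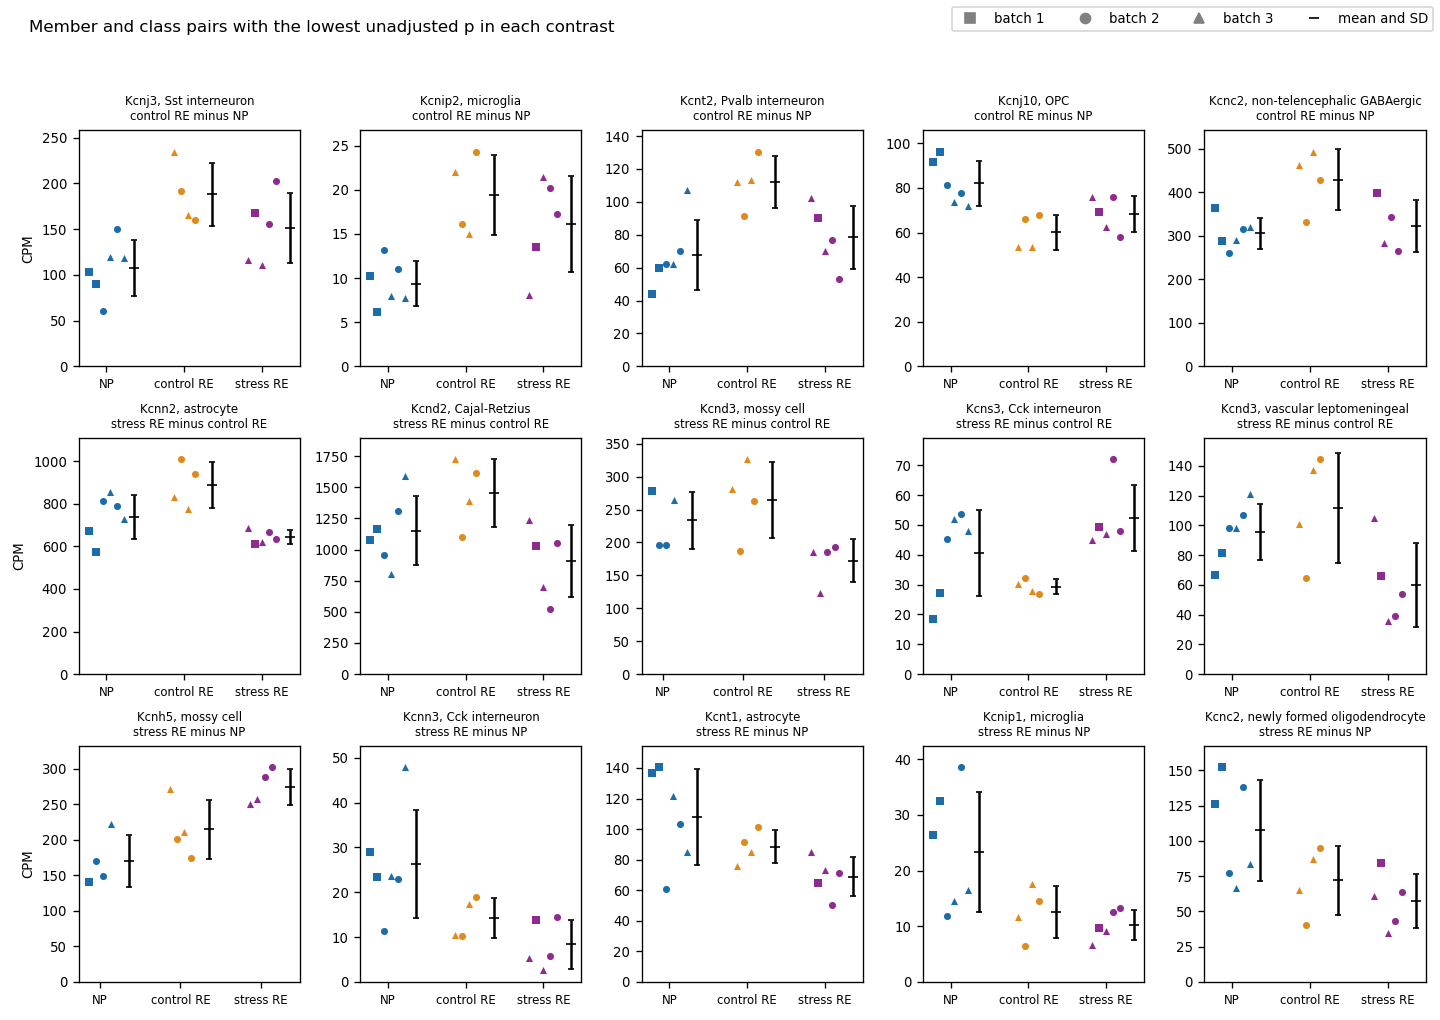
Level in CPM of the 15 member and class pairs with the lowest unadjusted p, 5 per contrast in rows, 1 point per mouse by group, with the marker shape giving the batch and the black bar the mean ± SD. Most panels show overlapping groups, and the panels without overlap in the contrast named above them are Kcnj3, Kcnip2, Kcnj10, Kcnn2, Kcns3 and Kcnh5. The pairs were picked for low p, and the share without overlap over all pairs was not counted.

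Most non-neuronal classes had a common sign in the stress RE contrasts. In stress RE against NP the log2 fold change was negative for 41 of 48 members in astrocytes, 46 of 59 in oligodendrocytes, 32 of 39 in microglia and 21 of 24 in newly formed oligodendrocytes, with medians of -0.23, -0.20, -0.37 and -0.29, beside 24 of 42 and -0.06 in OPC. It was negative for 16 of 21 members in choroid plexus, 11 of 14 in pericytes or smooth muscle, 15 of 20 in vascular leptomeningeal cells and 10 of 17 in endothelial cells, with medians of -0.50, -0.30, -0.29 and -0.05. The medians over all genes of these 9 classes lay between -0.01 and 0.01, but the normalization centres the genes of each class near 0. They are therefore no test of the sign of the members. The share of all genes with a negative sign was not counted, and members share the same mice and are not independent. The median over members was -0.05 in dentate granule neurons, -0.02 in CA1 and -0.06 in CA3, and it had the opposite sign in the progenitor or neuroblast class, at 0.25 over 25 members. No member passed in any of these classes after adjustment.

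Some neuronal RNA in the same nuclei moved with these values and some did not. The sum of 6 neuronal genes (Snap25, Syt1, Rbfox3, Stmn2, Camk2a and Grin1, a list written after the values were seen, with none at 0 in any of the classes) in oligodendrocytes was 536, 1248 and 1388 CPM (lowest, median, highest) in NP, 718 to 1525 CPM in control RE and 593 to 1232 CPM in stress RE. Kcnip4 in oligodendrocytes, which is high in neurons, was 1325, 3519 and 3906 CPM in NP, 1745 to 3968 CPM in control RE and 918 to 3560 CPM in stress RE, ranges that overlap. The 5 mice with the lowest neuronal sum were the 5 with the lowest Kcnip4 in oligodendrocytes, and likewise in astrocytes, microglia, OPC, newly formed oligodendrocytes, choroid plexus and vascular leptomeningeal cells, 3 of the 5 being stress RE mice in each class. In dentate granule neurons themselves, 2 of the 5 were shared, and 3 of the 5 with the lowest neuronal sum were likewise stress RE mice. Slc17a7 was not lower by mean in stress RE than in NP mice in oligodendrocytes (40.1 ± 5.39 against 36.2 ± 6.78 CPM), astrocytes (33.1 ± 6.42 against 30.5 ± 6.85 CPM) or microglia (50.75 ± 12.2 against 42.5 ± 6.87 CPM), but was in newly formed oligodendrocytes (8.76 ± 5.09 against 29.7 ± 20.6 CPM). The sum of 10 dentate granule markers in oligodendrocytes was 4163 ± 263 CPM in stress RE and 4118 ± 266 CPM in NP. In NP mice this sum was 2532 ± 238 CPM in astrocytes and 1520 ± 154 CPM in vascular leptomeningeal cells. Kcnip4 in NP mice had another order, with means of 3170 CPM in oligodendrocytes, 2586 CPM in astrocytes and 3075 CPM in vascular leptomeningeal cells. How much of the marker sum is neuronal RNA and how much is RNA of the glia themselves was not tested. The part of neuronal RNA in the non-neuronal differences between groups was not tested.

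**Figure D5:**
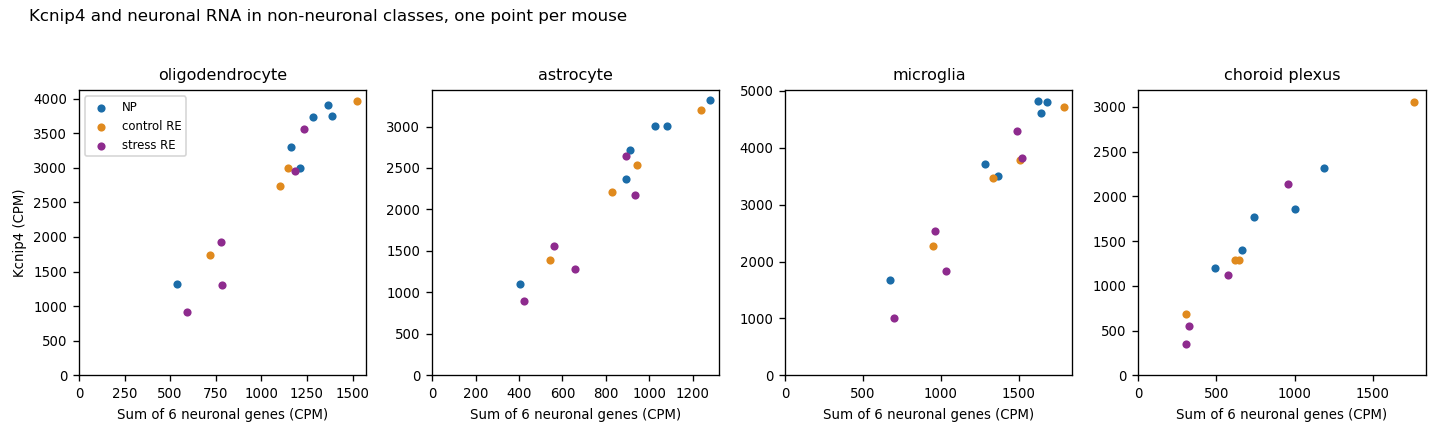
Kcnip4 against the sum of 6 neuronal genes, both in CPM on linear axes from 0, in oligodendrocytes, astrocytes, microglia and choroid plexus, 1 point per mouse coloured by group. The points lie along a rising band in each class, with 3 stress RE mice among the 5 lowest in each. The lowest neuronal sum is that of an NP mouse in oligodendrocytes, astrocytes and microglia and of a control RE mouse in choroid plexus. The lowest Kcnip4 is that of a stress RE mouse in each class.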

How the data were processed

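Nuclei were isolated from dHF punches of 15 mice and sequenced with the 10x Genomics 3′ assay, 1 library per mouse. The deposited values are UMI counts per gene and barcode, which the authors made with Cell Ranger (7.1.0 in their methods, 7.0.0 in the file headers) and an mm10 reference. Their removal of ambient RNA and doublets and their integration are not in these counts, so that RNA from broken cells is still counted. Groups came from the labels.

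From the counts, nuclei with at least 200 genes and at most 5% mitochondrial UMIs were kept, and the highest Scrublet scores were removed per library (0.8% per 1000 barcodes). Nuclei were clustered with scanpy 1.11.5 (2000 variable genes without the members, 30 components, 15 neighbours, Leiden resolution 1, libraries not joined), and interneurons and CA3 were clustered again. A cluster of at least 50 nuclei was named where at least 3 listed markers reached 5 CPM and were 2-fold above the median over clusters. The mean log2 fold had to be 2.5 (3.5 for GABAergic types). GABAergic types also needed 100 CPM of Gad2, at 5 times Slc17a6 or more. Excitatory types other than Cajal-Retzius cells needed 50 CPM of Slc17a7 or Slc17a6. A cluster of 5545 nuclei that reached the marker limits for non-telencephalic GABAergic neurons stayed unnamed. These naming thresholds were set after the clusters were seen. The classes are therefore rebuilt and may differ from those of the study.

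Counts were summed per mouse and class (at least 10 nuclei) and tested with the quasi-likelihood test of edgeR 4.0.16 in R 4.3.3, with TMM normalization, filterByExpr and all 3 groups in 1 fit per class. The SE given with a log2 fold change from edgeR is its absolute value divided by the square root of the F statistic. It restates that statistic and is not a separate estimate. P-values were adjusted by Benjamini-Hochberg over all genes of the class. With the filter they measure the spread between mice, and whether they do so without it was not tested. Alternatives were DESeq2 1.42.0, other size factors, no filter on low counts, batch in the fit, at least 30 nuclei, doublets kept, Leiden resolution 2 and leaving out each mouse. The scripts were tested on simulated counts with known changes. Shares of nuclei with a UMI were also taken after thinning each nucleus to 1000 UMIs, leaving out shallower nuclei.

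The members and gene lists were chosen with earlier results of these data known. Named pairs were the 5 with the lowest unadjusted p in each contrast, and named levels were a set fixed by role plus, for each class tested, the 2 members at 20 CPM or more with the largest ratio to their median over classes; other members are named to complete a family or a count. Of the members, 4 overlap another gene on the same strand (Kcnk2, Kcnd3, Kcnip1 and Kcnk4), where reads may be split or lost. Gene positions are from GENCODE vM21 and promoters from RefSeq, both on GRCm38. Some members are not reported here by name; they remain in the counts over members.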

Additional observations from a re-analysis of the deposited data

Results flagged for a closer look

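Of 110 groups of 4 to 10 mice that were checked, 5 held a mouse far from the others by Dixon's ratio at the 95% level, and chance alone gives about 1 in 20 groups. Kcnd3 in mossy cells stood at 124 CPM in stress RE mouse 75, with the nearest mouse at 186 CPM (n = 4). Kcnj3 in dentate granule neurons stood at 1023 CPM in control RE mouse 66, with the nearest at 834 CPM (n = 4). Kcnk1 in dentate granule neurons stood at 86.6 CPM in control RE mouse 72, with the nearest at 101 CPM (n = 4). Kcnq3 in thalamic neurons stood at 2087 CPM in NP mouse 63, with the nearest at 1809 CPM (n = 6). Kcns3 in Cck interneurons stood at 71.96 CPM in stress RE mouse 77, with the nearest at 49.5 CPM (n = 5).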

How the results depend on the processing

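The number of members called stayed at 0 in each of the 3 contrasts with other size factors, DESeq2, batch as a term, at least 30 nuclei per mouse, doublets kept, Leiden resolution 2 and, for leaving out each mouse in turn, from 0 to 0, and so did the number of partner and other channel genes. Without the filter on low counts, 1 member was called for control RE against NP (Kcnj3 in Sst interneurons), 1 for stress RE against control RE (Kcnd2 in Cajal-Retzius cells) and 4 for stress RE against NP (Kcnc2 and Kcnma1 in choroid plexus, Kcnh5 in mossy cells, Kcnk2 in Sst interneurons), and among the partner and other channel genes 2 (Dpp10 in non-telencephalic GABAergic neurons and in subiculum) for control RE against NP and 3 for stress RE against NP (Abcc9, Cacna1e and Dpp10). Over all genes that fit called 169, 172 and 272 of 515470 pairs, against 0, 4 and 0 of 198398 with the filter. For Kcnj3 in Sst interneurons the log2 fold change was 0.86 ± 0.19 (SE) without the filter and 0.82 ± 0.21 with it. Its unadjusted p was 4.2e-06 without the filter against 0.00087 with it (edgeR). A like difference and SE thus gave a far lower p, so that these calls are not read as differences between groups. The cause was not tested. Without the filter the adjusted p of edgeR ran from 2.454e-08 for Dpp10 in subiculum to 0.0388 for Kcnc2 and Kcnma1, with 0.00727 for Kcnj3, 0.0327 for Kcnd2 and 0.035 for Kcnh5. No fold change of the 15 named pairs changed sign under any alternative that was run. Of 66 named levels under 4 alternatives, 258 values moved by less than 1 SD and 6 by more. With doublets kept, Kcnh8 moved from 469 to 429 CPM in OPC and from 46.6 to 112 CPM in newly formed oligodendrocytes (27.2 CPM at Leiden resolution 2), Kcnj10 from 121 to 107 CPM and Kcnk13 from 330 to 288 CPM in oligodendrocytes, and Kcnq5 from 3803 to 3645 CPM in striatal projection neurons. Thinned to 1000 UMIs, Kcnh8 moved from 134 to 193 CPM in progenitors or neuroblasts. No paired analysis was possible because the replicate numbers are names in accession order and pair no mice. Groups of 3 to 6 mice per class gave a median standard error of 0.22 to 0.24 log2 units per pair. Larger differences were also not called, such as -0.89 for Kcnd3 in vascular leptomeningeal cells (stress RE against control RE), so that the 0 calls set no limit on the size of a difference.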
